A study of Mus musculus with 6 samples.

Results

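The genes described here are 10 surface or surface-associated markers by which fibroblasts, mesenchymal progenitors and perivascular cells are recognised: Cd34, Thy1, Ly6a, Pi16, Dpp4, Eng, Nt5e, Mcam, Vcam1 and Cspg4. They were chosen by symbol, and all 10 are among the 24413 gene rows of the expression table. The samples were W-EGFP cells, interstitial cells of the testis of E16.5 FLE-EGFP mouse embryos. In such mice a fetal Leydig cell enhancer (FLE) drives EGFP. All 6 samples came from such cells, 10000 per sample, and carry the same reporter. In 3 samples the cells had 0.5 µM SAG, an agonist of the Hedgehog transducer Smoothened, for 1 hour, and in 3 samples the vehicle DMSO for the same time. The labels give neither the animals behind each sample nor how cells were gated by EGFP, and "siCnt", a part of every column name, is not explained by them. No label tells whether replicates are different cultures or different animals, so a p-value here speaks of sample-to-sample spread, which may be technical.

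Stromal cells of most organs carry overlapping sets of these proteins. CD34, SCA-1 (from Ly6a), PI16 and DPP4 are known from fibroblast progenitors of the vessel adventitia and connective tissue sheets. THY1, endoglin (Eng) and the nucleotidase CD73 (Nt5e) are the classical panel of cultured mesenchymal stromal cells. MCAM and the proteoglycan NG2 (Cspg4) mark pericytes and smooth muscle, and VCAM1 is an adhesion molecule of activated endothelium and of stromal cells that hold leukocytes. In the fetal testis the interstitium holds Leydig cells, their progenitors, perivascular cells, endothelium and macrophages, and Hedgehog ligand from Sertoli cells acts on the interstitial cells.

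The libraries held 18486396 to 25491259 reads with DMSO and 7694479 to 8804335 with SAG. Values are signals, that is, CPM with a scaling factor for each library, and errors after ± are SD (n = 3). SAG replicate 3 stood apart, where Rn45s, a ribosomal RNA gene, took 1.67% of reads, compared with 0.326% to 0.360% elsewhere. Gli1, which Hedgehog signalling induces, had signals of 0.704, 0.324 and 0.846 in the DMSO libraries and of 32.6, 46.3 and 30.8 in the SAG libraries. The fetal Leydig marker Nr5a1 was present, at 119 ± 4.08 with DMSO and 104 ± 4.86 with SAG. So was the reporter EGFP, at 98.9 ± 12.2 and 121 ± 11.7. Of 9 fetal Leydig markers, Nr5a1 among them, 6 had a mean signal of at least 1. Cyp17a1 was near 0, at 0.158 ± 0.147 with DMSO and 0 with SAG. Insl3 was also low, at 0.621 ± 0.573 and 0.121 ± 0.129, and Lhcgr had no read in any library. The interstitial progenitor marker Tcf21 was at 42.9 ± 3.36 with DMSO and 5.82-fold higher with SAG, at 249 ± 29.9. Leukocyte markers summed to 2.48 to 3.47 with DMSO and 1.27 to 3.85 with SAG over 14 genes, with Cd52 and Tyrobp at 0.

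Measured against the length of their exons, the markers formed 3 tiers. Mcam was the highest, at 160 ± 10.2 signal per kilobase with DMSO and 106 ± 12.9 with SAG. Cspg4 followed at 51.9 ± 1.86 and 38.0 ± 5.79, and Thy1 at 49.2 ± 1.88 and 36.7 ± 4.18 per kilobase. The levels of these last genes overlapped within each group and could not be ordered. Eng was next, at 21.1 ± 0.226 per kilobase with DMSO and 25.4 ± 4.44 with SAG.

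A middle tier held Nt5e, at 2.91 ± 0.143 and 3.48 ± 0.231 per kilobase, and Vcam1, at 0.902 ± 0.0690 and 0.774 ± 0.116. Cd34 changed place: it was the eighth of 10 with DMSO, at 0.131 ± 0.0832 per kilobase, and the sixth with SAG, at 1.88 ± 0.386, above Vcam1 in every SAG library. Ly6a, Pi16 and Dpp4 were in the bottom tier in both groups, at 0.145 per kilobase or less, and with DMSO the values of Ly6a and Cd34 overlapped. In the DMSO libraries Mcam, Cspg4 and Thy1 were thus the highest of the 10 per kilobase, and Ly6a, Cd34, Pi16 and Dpp4 the lowest.

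**Figure D1:**
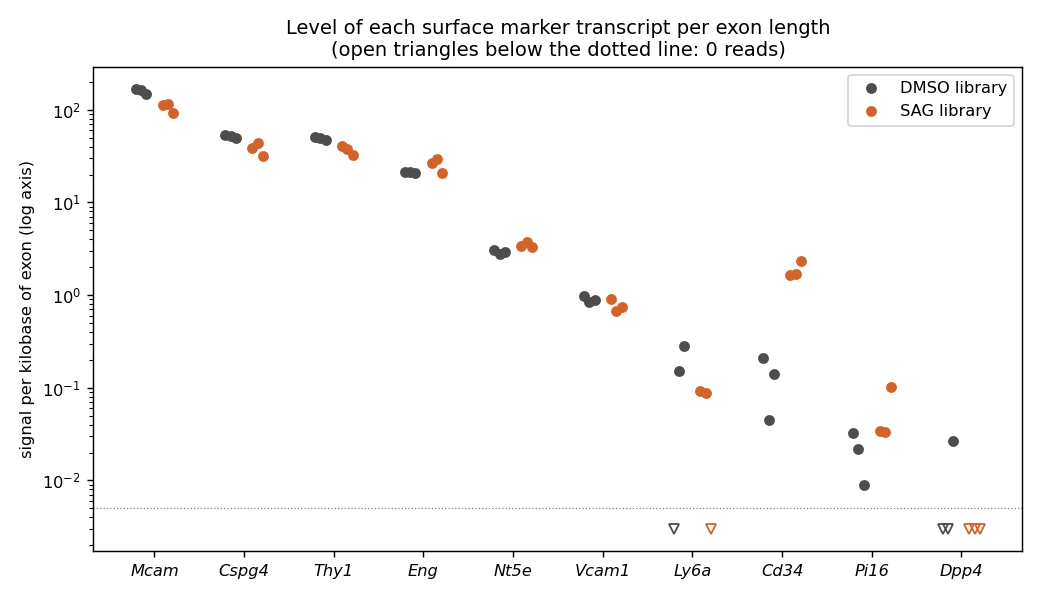
Signal per kilobase of exon (log axis) of the 10 marker genes, ordered by the DMSO mean, with 1 point for each of the 3 DMSO and 3 SAG libraries and open triangles for libraries with 0 reads. Cd34 lies with the bottom tier in DMSO and above Vcam1 in SAG, while Mcam is highest in both groups.

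SAG against DMSO was tested with limma on log2(signal + 1) over 12550 genes, those whose mean signal reached 1. The call was a Benjamini-Hochberg adjusted p below 0.05, which 29.6% of all tested genes met (12.9% higher and 16.6% lower), and 48% had groups that did not overlap. Scaling by library total moved the calls from 43.8% to 66.2% higher. edgeR's quasi-likelihood test on recovered reads called 29.9% (15% higher and 15% lower) and gave the same call for each tested marker. Of the 10 markers 7 passed the filter on low values. Cd34 was called higher, and Thy1, Mcam and Cspg4 were called lower. Eng, Nt5e and Vcam1 were not called, and Ly6a, Pi16 and Dpp4 were under the filter. The median log2 fold change was -0.20 over the 7 tested markers and -0.03 over all tested genes. These are bulk samples, in which fewer cells of a type and less RNA per cell cannot be told apart.

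**Figure D2:**
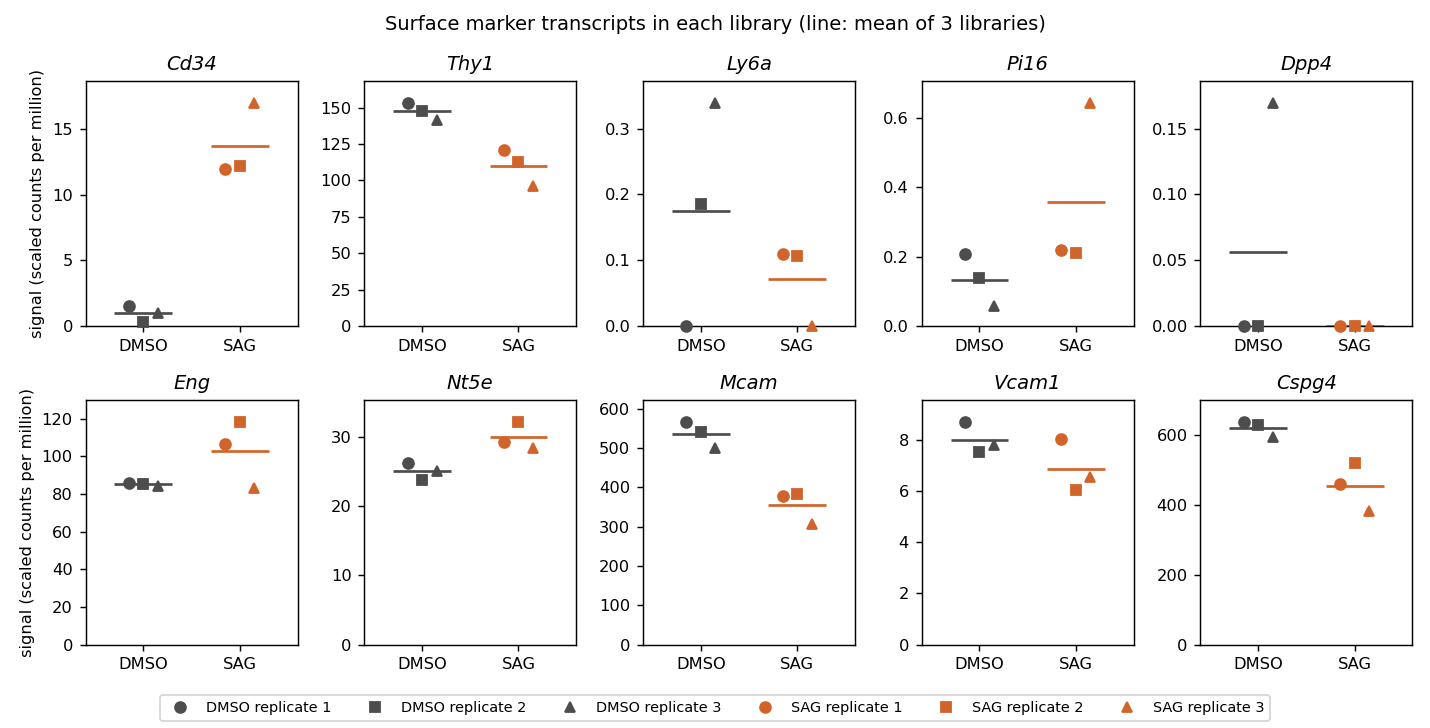
Signal (scaled CPM, linear axes from 0) of each marker gene in the 3 DMSO and 3 SAG libraries, with marker shape for the replicate number and a line at the group mean. The SAG points of Cd34 lie above all its DMSO points, while Thy1, Mcam and Cspg4 are lower in each SAG library.

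Cd34 encodes a sialomucin of blood progenitors, endothelium and fibroblast progenitors. Its signal was 1.53, 0.324 and 1.02 in DMSO replicates 1 to 3 (37, 7 and 18 reads) and 12.0, 12.2 and 17.0 in SAG replicates 1 to 3 (109, 115 and 132 reads). The DMSO libraries were all low and the SAG libraries all high, with no overlap. From 0.957 ± 0.606 Cd34 rose to 13.7 ± 2.82, or 14.3-fold (log2 fold change 2.94, 95% interval 2.35 to 3.53; limma, Benjamini-Hochberg adjusted p = 9.06e-05). Its fold change was above that of 99.9% of tested genes.

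The DMSO mean of Cd34 is under the filter, so the gene was tested, and ranked among tested genes, only because of its SAG level. Without a filter its limma call held (Benjamini-Hochberg adjusted p = 6.77e-04). The size rests on few DMSO reads: with each library left out in turn the plain fold ran from 10.8 (without DMSO replicate 2) to 20.5 (without DMSO replicate 1). A pseudocount of 5 gave a log2 fold change of 1.65 and one of 0.1 gave 3.89.

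The stretch before the start of Cd34 is shown because this gene had the largest change among the markers. It is RefSeq sequence of GRCm38.p6 on the plus strand, chr1:194938571-194938818, and ends at the base before the first annotated start. None of 6 motifs searched on both strands in the 250 bases before the RefSeq start matched there.

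Cd34: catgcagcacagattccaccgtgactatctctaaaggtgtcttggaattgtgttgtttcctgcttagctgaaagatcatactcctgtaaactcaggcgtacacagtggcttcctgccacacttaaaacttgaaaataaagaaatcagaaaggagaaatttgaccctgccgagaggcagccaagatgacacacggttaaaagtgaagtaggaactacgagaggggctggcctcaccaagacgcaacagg

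The motifs were GACCACCCA for GLI factors, GGNNTTTCC for NF-kB, TGANTCA for AP-1, TGACGTCA for CREB, GGGCGG for SP and KLF factors and TATAAA for a TATA box. Of 32851 RefSeq mouse promoters of the same length, 0.225%, 4.93%, 6.75%, 1.55%, 32.7% and 12.4% hold them, in that order. RefSeq entries matched 7 of the 10 markers. The 250 bases of Cd34 were 46.4% G and C with 6 CpG dinucleotides, against medians of 52.4% and 6 over all promoters.

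CD34 and the podocalyxins form a sialomucin family. Podxl2 (endoglycan) also rose, 2.04-fold, from 15.7 ± 1.54 to 32.1 ± 5.20 (log2 fold change 0.98), while Podxl was near 0, at 0.385 ± 0.313 and 0.494 ± 0.0482. The adaptor gene Crkl, whose protein binds the CD34 tail, was not called (log2 fold change -0.06). The genes whose profile over the 6 libraries was nearest to that of Cd34 were Cygb (cytoglobin), the Hedgehog co-receptor gene Gas1 and Selenbp1. Their distances, on centred log2(signal + 1), were 0.655, 0.759 and 0.919, with log2 fold changes of 2.75, 2.65 and 3.18. Genes picked by nearness to Cd34 have similar fold changes by construction, so these values are no separate result. The filter for such genes, a mean signal of at least 10 over all libraries, can be met through the SAG level alone.

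Endothelial cells also carry CD34, endoglin and MCAM. Of 16 endothelial markers 6 could be tested, of which Sox18 rose and Flt1 fell. Their summed signal was 126 to 131 with DMSO and 76.7 to 109 with SAG, most of it from Flt1 (89.1 ± 2.89 and 44.8 ± 10.5) and Cdh5 (27.8 ± 3.15 and 38.6 ± 8.94). Pecam1 was at 0.518 ± 0.132 and 0.324 ± 0.321, and Cldn5 and Sox17 had no read in any library. Sox18 was at 0.361 ± 0.323 and 2.65 ± 0.368, so that, like Cd34, it was tested only because of its SAG level. Cdh5 was not called, but it passed as higher with scaling by library total, in DESeq2 and without SAG replicate 3. The part of endothelial cells in the level of Cd34 was not tested.

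Ly6a, Pi16 and Dpp4, the other markers of fibroblast progenitors, were barely detected. Ly6a, a GPI-anchored protein, had 0, 4 and 6 reads in DMSO replicates 1 to 3 and 1, 1 and 0 reads in SAG replicates 1 to 3. Over each group that is 0.150 CPM with DMSO (exact 95% Poisson interval 0.0718 to 0.275) and 0.0799 with SAG (0.00968 to 0.289), and the intervals overlap. They cover counting error only and leave out the spread between libraries, such as 0, 4 and 6 reads with DMSO. They also take each read as an independent molecule, which PCR copies are not. By a floor of 3 reads over the group, 0.120 CPM with SAG, Ly6a was not detected with SAG.

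Pi16, which encodes a peptidase inhibitor, had 5, 3 and 1 reads with DMSO and 2, 2 and 5 with SAG. In CPM this is 0.135 (exact 95% Poisson interval 0.0616 to 0.256) and 0.360 (0.165 to 0.683). Each SAG signal lay above each DMSO signal, by as little as 0.212 against 0.207. SAG replicates 1 and 2 and DMSO replicate 3 were under the floor of 3 reads. The exact two-sided permutation p for Pi16 was 0.1, the lowest value this design allows, and for Ly6a it was 0.5.

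Dpp4, a membrane protease that trims chemokines, had 3 reads in DMSO replicate 3 and none in the other 5 libraries. Its 0 of 25016293 SAG reads allows up to 0.120 CPM by a floor of 3 reads, or 0.147 by the exact 95% Poisson interval, against 0.0449 measured over the DMSO libraries. It was thus not detected with SAG, and a difference was not detectable at this depth. Its substrate gene Cxcl12 was abundant, at 1679 ± 64.4 and 1626 ± 244, and its relative Fap was at 0.144 ± 0.175 and 0.308 ± 0.0833. Neither Cxcl12 nor Cav1, whose product binds DPP4, was called.

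Ly6a has close paralogs, so its few reads are uncertain. Of 27 other genes of the Ly6 and uPAR family 24 were in the table, 10 of them with no read, and 5 were tested. Plaur, the urokinase receptor gene, fell 1.65-fold, from 75.6 ± 1.36 to 45.7 ± 2.44 (log2 fold change -0.72), and the other 4 tested genes were not called. Ly6e was at 67.1 ± 3.24 and 58.3 ± 1.68, while Ly6c1 was near 0 (0.0376 ± 0.0651 and 0.0428 ± 0.0742).

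Other genes of adventitial fibroblasts moved in both directions. Of 23 such genes 21 were tested, 7 rose and 9 fell, with a median log2 fold change of -0.34. Those with the smallest p were Limch1, Igfbp6, Dpt and Igfbp5. Dpt (dermatopontin) was, like Cd34, near 0 with DMSO, at 0.789 ± 0.644, and rose to 16.3 ± 0.872. It too was tested only because of its SAG level. The insulin-like growth factor binding protein genes Igfbp6 and Igfbp5 rose 2.99-fold and 4.26-fold, whereas Limch1 fell 4.77-fold.

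Thy1 encodes a small GPI-anchored immunoglobulin-type protein. Its signal was 153, 147 and 142 in DMSO replicates 1 to 3 and 121, 113 and 96.5 in SAG replicates 1 to 3. Each SAG library was below each DMSO library. Thy1 fell 1.34-fold, from 147 ± 5.64 to 110 ± 12.5 (log2 fold change -0.42, SE 0.11; limma, Benjamini-Hochberg adjusted p = 0.0179). Leaving out DMSO replicate 1, 2 or 3 ended the call, with limma's Benjamini-Hochberg adjusted p at 0.0924, 0.0765 and 0.0636. Scaling by library total also ended it (log2 fold change -0.28, adjusted p = 0.105).

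THY1 binds integrins that contain the alpha V or beta 3 chain, and these genes moved apart. Itgav fell 2.83-fold, from 367 ± 11 to 129 ± 5.51, and Itgb3 rose 2.47-fold, from 27.8 ± 2.74 to 68.6 ± 8.46. Itgb5 was not called. The profiles nearest to that of Thy1 were those of Gclm, Tgoln2 and Ube2c, at distances of 0.0743 to 0.0798.

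Eng encodes a co-receptor for BMP9, BMP10 and TGF-beta. Its signal was 86.1, 85.5 and 84.3 with DMSO and 107, 118 and 83.1 with SAG. The DMSO libraries were tight, SAG replicates 1 and 2 lay above them and SAG replicate 3 below. Over all libraries Eng was at 85.3 ± 0.915 and 103 ± 18 (log2 fold change 0.25, 95% interval -0.05 to 0.55; limma, Benjamini-Hochberg adjusted p = 0.181). Without SAG replicate 3 it passed (log2 fold change 0.39, Benjamini-Hochberg adjusted p = 2.57e-04 in limma).

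Of 8 tested partners of endoglin 2 rose, both of them receptors or co-receptors, and 3 fell, of which 2 are receptors and 1 a protease. Tgfbr3 (betaglycan, the related co-receptor) rose 2.66-fold, from 11.3 ± 0.826 to 30.1 ± 1.51, and Tgfbr2 rose 1.46-fold, a call that was lost without DMSO replicate 2. Tgfbr1 fell 1.65-fold, from 88.0 ± 5.98 to 53.2 ± 5.47, and Bmpr2 fell 1.88-fold, from 141 ± 12.0 to 75.0 ± 2.96. Mmp14, whose protease sheds endoglin, fell 1.56-fold, from 2816 ± 106 to 1805 ± 330. The receptor gene Acvrl1 was not called, at 57.0 ± 0.795 and 48.4 ± 5.28. The ligand genes Gdf2 (BMP9) and Bmp10 had no read in any library.

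Nt5e encodes CD73, which turns extracellular AMP into adenosine. Its signal was 26.3, 23.8 and 25.2 with DMSO and 29.3, 32.2 and 28.4 with SAG, so that every SAG library lay above every DMSO library. The means were 25.1 ± 1.23 and 29.97 ± 1.99 (log2 fold change 0.25, 95% interval -0.01 to 0.51), which did not pass (limma, Benjamini-Hochberg adjusted p = 0.137). It passed without SAG replicate 3 (Benjamini-Hochberg adjusted p = 0.0466 in limma) and with scaling by library total (0.0402, log2 fold change 0.38).

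Of 10 listed partners of CD73 7 were tested, of which 1 rose, 2 fell and 4 were not called. Enpp1 was among those not called, at 19.5 ± 1.05 with DMSO and 19.0 ± 5.65 with SAG. Entpd2, Adora2a and Alpl were under the filter. An enzyme upstream of CD73 and a receptor downstream were called in opposite directions. Entpd1 (CD39), which makes AMP from ATP, fell 2.32-fold, from 7.64 ± 0.758 to 3.29 ± 0.769. Adora2b, an adenosine receptor gene, rose 4.04-fold, from 1.15 ± 0.536 to 4.65 ± 0.60. The adenosine transporter gene Slc29a1 was at 40.7 ± 1.15 and 54.0 ± 9.66 and was not called (limma, Benjamini-Hochberg adjusted p = 0.0678). Slc29a1 passed as higher in 4 of 18 alternatives: edgeR, DESeq2, scaling by library total and the fit without SAG replicate 3. Ada, whose enzyme removes adenosine and docks on DPP4, was called lower in limma (log2 fold change -0.71), a call lost in 10 of 17 alternatives, edgeR, library-total scaling and the fit without any 1 DMSO replicate among them.

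Mcam encodes an immunoglobulin-type adhesion molecule of pericytes, smooth muscle and endothelium. Its signal was 566, 542 and 499 in DMSO replicates 1 to 3 and 377, 382 and 305 in SAG replicates 1 to 3. Each SAG library was below each DMSO library. Mcam fell 1.51-fold, from 536 ± 34.3 to 355 ± 43.1 (log2 fold change -0.60, SE 0.11; limma, Benjamini-Hochberg adjusted p = 0.00458). The adjusted p with each library left out ran up to 0.0348, and the fall was 1.41-fold to 1.57-fold.

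Cspg4 encodes NG2, a chondroitin sulfate proteoglycan of pericytes and progenitor cells. Its signal was 637, 627 and 595 with DMSO and 459, 519 and 381 with SAG, again with no overlap. Cspg4 fell 1.37-fold, from 620 ± 22.2 to 453 ± 69.1 (log2 fold change -0.46, SE 0.12; limma, Benjamini-Hochberg adjusted p = 0.0185). As for Thy1, leaving out DMSO replicate 1, 2 or 3 ended the call, with limma's Benjamini-Hochberg adjusted p at 0.0869, 0.0781 and 0.0627, and so did scaling by library total (0.0989, log2 fold change -0.32).

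The stretches before Mcam and Cspg4 are shown because these perivascular markers were lower together. Both are RefSeq sequence of GRCm38.p6 on the plus strand, cut where the first annotated transcript starts, at chr9:44134408-44134468 and chr9:56864854-56865032. The capitals in Cspg4 mark matches to GGGCGG read on the other strand.

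Mcam: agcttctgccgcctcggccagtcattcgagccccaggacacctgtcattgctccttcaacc
Cspg4: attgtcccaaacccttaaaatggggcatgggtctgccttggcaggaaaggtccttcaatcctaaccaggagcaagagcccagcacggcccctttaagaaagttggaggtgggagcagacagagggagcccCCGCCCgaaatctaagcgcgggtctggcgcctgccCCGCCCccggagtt

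Within the 250 bases before its RefSeq start, which lies downstream of that first start, Mcam had 5 matches to GGGCGG and 1 to TGACGTCA, the CREB motif, in capitals below. The stretch printed is chr9:44134619-44134646, and it also holds 1 of the GGGCGG matches, read on the other strand and left in lower case.

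Mcam, CREB motif: cccgccccccTGACGTCAgcccccgaca

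Cspg4 had 2 matches to GGGCGG and none to the other motifs, and Nt5e had 4 to GGGCGG, which lie as 2 overlapping pairs. Dpp4 had 1 TATAAA, and Eng and Pi16 had no match. The 250 bases were 73.6% G and C with 25 CpG dinucleotides for Mcam and 60.4% with 12 for Cspg4. None of the 7 markers with a RefSeq entry had the GLI motif. A match of letters is not a binding site, and no match speaks only of this window.

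Among the laminin and collagen VI genes of matrix ligands of MCAM and NG2, some were higher and others were not called. Of 7 tested partners of NG2 3 rose, 1 fell and 3 were not called. The partner that fell was Fgf2, from 11.9 ± 1.19 to 8.50 ± 0.493, a call lost in 12 of 18 alternatives. Lama4, a laminin chain bound by MCAM, rose 1.91-fold, from 35.5 ± 2.905 to 67.9 ± 13.1, and Lama5 was not called. Collagen VI, a ligand of NG2, had Col6a1 and Col6a2 up 2.89-fold and 2.98-fold, with Col6a3 not called. Col6a3 passed as higher in 3 of 18 alternatives: DESeq2, scaling by library total and the fit without SAG replicate 3. Pdgfra, whose receptor protein binds a growth factor that NG2 captures, rose 6.34-fold, from 34.7 ± 2.36 to 220 ± 8.69.

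Contractile genes of smooth muscle fell beside Mcam and Cspg4, in a list that was not divided between smooth muscle and pericytes. Of 14 smooth muscle and pericyte markers 10 were tested, 7 fell (Actg2, Lmod1, Cnn1, Acta2, Tagln, Myh11 and Des) and 2 rose (Notch3 and Abcc9), with a median log2 fold change of -0.55. Without the filter on low values 3 fell. Their summed signal was 21163 to 22120 with DMSO and 13453 to 14832 with SAG. Actg2 fell 1.95-fold, Lmod1 fell 1.99-fold and Cnn1 fell 1.87-fold, while the pericyte gene Notch3 rose 1.78-fold. The pericyte gene Pdgfrb was not called, at 208 ± 5.34 and 234 ± 50.6, and Rgs5 was near 0, at 0.455 ± 0.0406 and 0.425 ± 0.643. The calls of Des, Myh11 and Abcc9 were each lost without DMSO replicate 1, 2 or 3. Des, whose groups overlapped, lost its call in 13 of 18 alternatives, edgeR and DESeq2 among them, and Myh11 in 8 of 18. Abcc9, at 0.549 ± 0.165 with DMSO and 1.59 ± 0.404 with SAG, was tested only because of its SAG level. Whether a shift of such cells takes part in the lower Mcam and Cspg4 was not tested.

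Vcam1 was lower per kilobase than Mcam and Cspg4 in every library. Its signal was 8.70, 7.53 and 7.78 with DMSO and 8.02, 6.04 and 6.55 with SAG. SAG replicate 1 lay within the DMSO range, and Vcam1 was not called, at 8.004 ± 0.612 and 6.87 ± 1.03 (log2 fold change -0.20, 95% interval -0.57 to 0.17; limma, Benjamini-Hochberg adjusted p = 0.388). VCAM1 binds integrins alpha 4 beta 1 and alpha 9 beta 1. Itga9 rose 1.57-fold, from 118 ± 9.38 to 186 ± 24.9, Itgb1 fell 1.45-fold, from 2256 ± 18.8 to 1555 ± 206, and Itga4 was not called. Msn (moesin), which ties VCAM1 to actin, fell 1.82-fold, from 1369 ± 16.7 to 751 ± 27.0.

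**Figure D3:**
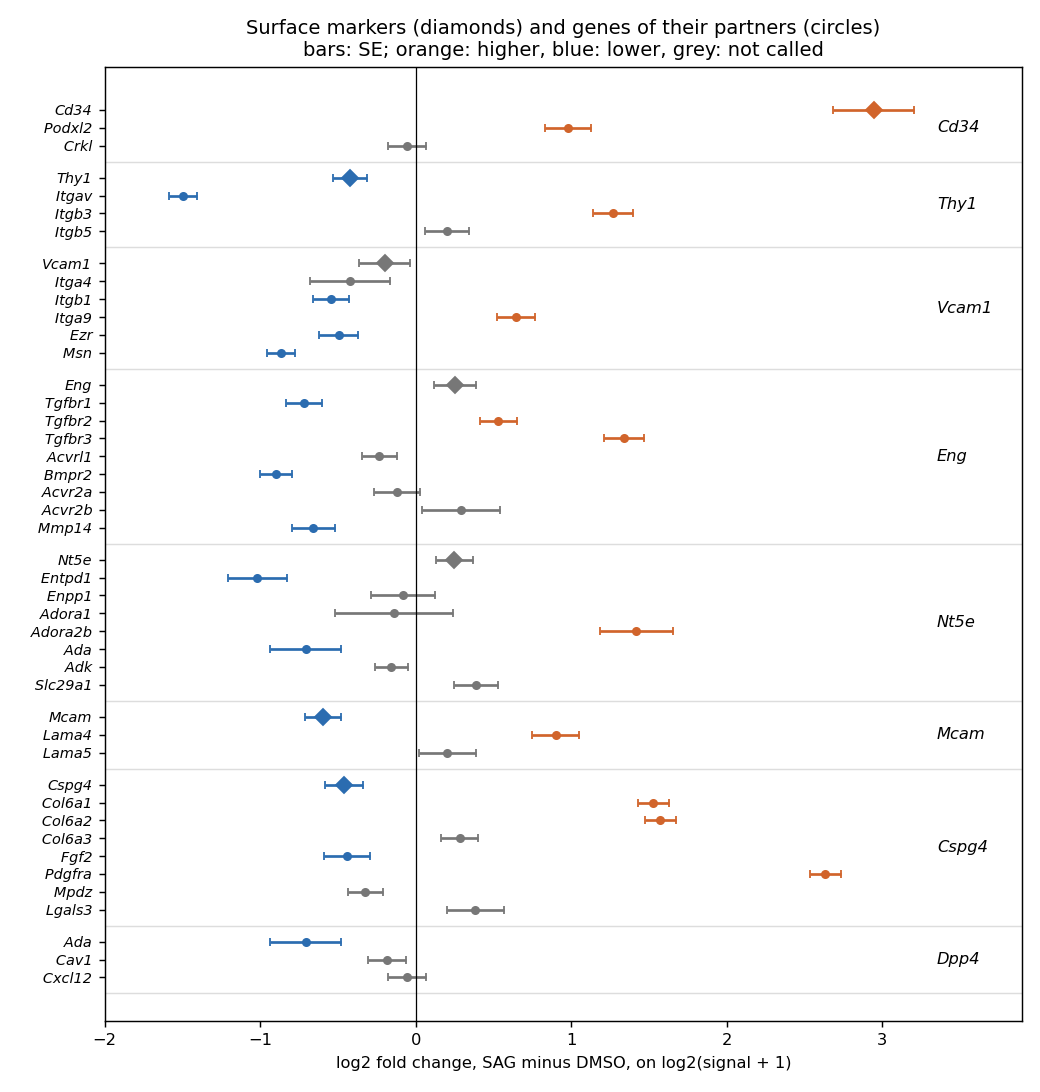
Log2 fold change (SAG minus DMSO, on log2(signal + 1)) of the tested markers (diamonds) and of genes of their ligands, receptors and pathway enzymes (circles), grouped by marker, with bars for SE and colour for the limma call. Genes of 1 group often lie on both sides of 0, as Itgav and Itgb3 do for Thy1 and Entpd1 and Adora2b do for Nt5e.

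Over all partner genes 10 rose and 11 fell of 37 tested (44 listed), with a median log2 fold change of -0.08. Lgals1, the galectin-1 gene, was among those that fell, 1.73-fold, from 2037 ± 44.2 to 1177 ± 281. Among 28 other mesenchymal surface antigens 26 were tested, 4 rose (Alcam, Pdgfra, Mme and Itga6) and 7 fell (Cd44, Itgb1, Ncam1, Cd200, Itga5, Itgav and Cdh2), with a median of -0.11. Cd44, the hyaluronan receptor gene, fell 2.15-fold, from 255 ± 5.68 to 119 ± 15.4. Mme, which encodes the peptidase CD10, rose 3.04-fold, from 8.59 ± 0.131 to 26.1 ± 3.354.

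**Figure D4:**
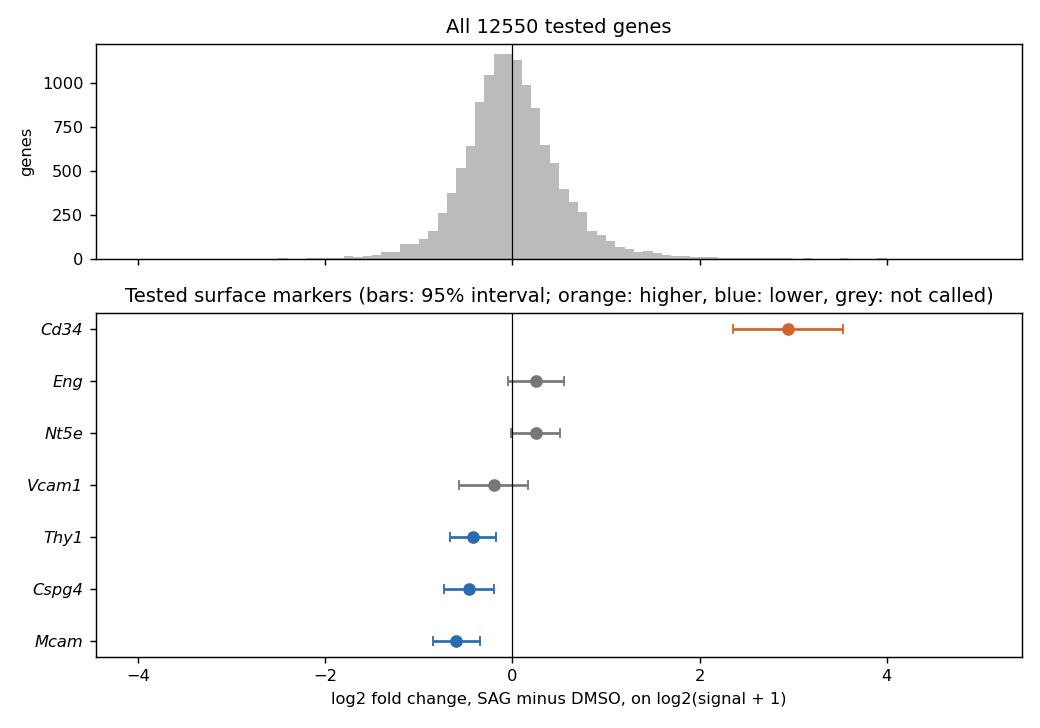
Log2 fold change (SAG minus DMSO, on log2(signal + 1)) of all 12550 tested genes as a histogram (top) and of the 7 tested markers with 95% intervals (bottom). Cd34, at 2.94, lies in the far right tail, and the other 6 markers lie between -0.60 and 0.25.

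Nearest profiles to the other called markers were Tmem55a, Cox5b and Srpx for Mcam (distances 0.0719 to 0.0792) and Lrrk1, Mycbp2 and Rrbp1 for Cspg4 (0.0791 to 0.0887). SAG replicate 3 was the lowest SAG library for 5 of the 7 tested markers (Thy1, Eng, Nt5e, Mcam and Cspg4) and the highest for Cd34. Over all tested genes it was the lowest SAG library for 40.3% and the highest for 40.7%. Leaving it out gave 3 markers higher (Cd34, Eng and Nt5e) and 3 lower.

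**Figure D5:**
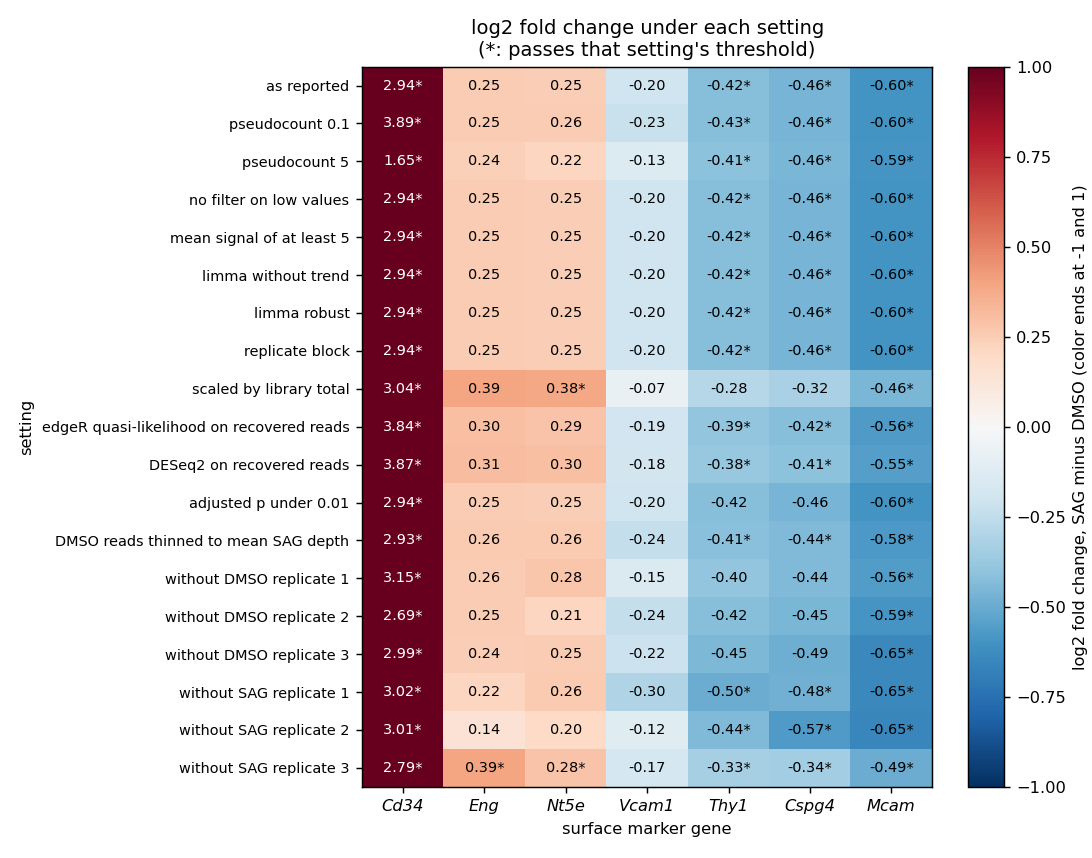
Log2 fold change (SAG minus DMSO) of the 7 tested markers (columns) under each setting (rows), with an asterisk where the value passes that setting's threshold. Cd34 and Mcam pass in every row, Vcam1 in none, and no marker changes sign.

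On GRCm38 the markers lie on 6 chromosomes, and 4 of them (Thy1, Nt5e, Mcam and Cspg4) are on chromosome 9. Thy1 (44043384 to 44048579) and Mcam (44134469 to 44142727) are 85.9 kilobases apart on the plus strand, with 4 tested genes between them. Cspg4 spans 56865033 to 56899870 and Nt5e 88327197 to 88372092, both on the plus strand. Cd34 spans 194938819 to 194961279 on chromosome 1, Eng 32646595 to 32682669 on chromosome 2 and Vcam1 116109949 to 116129688 on the minus strand of chromosome 3. Antisense or opposite-strand genes overlap at most 3.67% of the exon bases of a marker (Dpp4), with 2.03% for Cd34 and 0.507% for Mcam. The library kit keeps the strand, per the labels, but the strand setting of the counting is not given in the sources used here, so it is not known whether such reads were told apart.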

How the data were processed

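RNA-seq was done on 3 DMSO and 3 SAG samples. The tools named for the reads are STAR, Trim Galore (0.6.4), edgeR (version given as 2.2.1) and featureCounts (2.0.0), with the build GRCm38, per the submitters' processing notes. Annotation, strand setting and filters are not given in the sources used here. Deposited by the authors was 1 table of signal, in CPM with a scaling factor inside for each library. All values (100%) were whole multiples of the smallest value of their column within 0.01, which gave back whole reads, and TMM factors computed from these equalled the factors inside the values. The 92 spike-in rows were left out of tests.

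The table was fitted whole with limma 3.58.1 (R 4.3.3) on log2(signal + 1), with group as the only term, eBayes with trend and a mean signal of at least 1. The design fixed limma on normalized values, and the count tests on recovered reads (edgeR 4.0.16 quasi-likelihood and DESeq2 1.42.0) were alternatives. Log2 fold changes are SAG minus DMSO and understate changes of genes with low signal, and plain folds divide the mean signals. On simulated counts for 12231 genes the limma step recovered 31.6% of 98 genes changed 1.5-fold and 89% of 100 changed 2-fold, with 6.98% false calls. Only these genes were changed, all upward, with equal dispersion in both groups. In the data 29.6% of genes were called and the SAG libraries spread more than the DMSO libraries. These rates therefore do not carry over to the tests here. Levels per kilobase used the exon union of GENCODE M21 (GRCm38). Promoters are RefSeq GRCm38.p6.

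The markers, gene lists, tests and alternatives were chosen with earlier results of these data known. Beside all 10 markers, genes were named for the smallest p in their list (up to 4) or as a partner or paralog of a marker. Others were named for the 3 nearest profiles (mean signal of at least 10) or as checks. The called genes of the surface antigen and pericyte lists were also named after their values were seen. So were Pecam1, Cldn5, Sox17, Cd52, Tyrobp, Rgs5, Pdgfrb, Irf1, Nfkbia, Icam1, Star, Cyp17a1, Insl3 and Lhcgr. Lists of erythroid, Sertoli, germ, fetal Leydig, interstitial progenitor and mesothelial markers were summed as checks. The main fit did not treat replicate numbers as pairs.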

Additional observations from a re-analysis of the deposited data

Results flagged for a closer look

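Synthetic spike-in RNAs, which name no gene and enter no comparison, had reads in the SAG libraries and none in the 3 DMSO libraries. There were 111 in SAG replicate 1, 54 in SAG replicate 2 and 1205 in SAG replicate 3, the library that was also lowest of the SAG libraries for 5 of the 7 tested markers. These were at most 0.0157% of a library's reads. Their part in the marker values was not tested. Spike-in reads and lower depth both went with SAG. Any difference in library handling between the groups thus cannot be told apart from the treatment.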

How the results depend on the processing

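The direction of all 7 tested markers was the same in all 18 alternatives. Cd34 and Mcam were called and Vcam1 was not called in each of them; Thy1 and Cspg4 lost their calls in 5, Nt5e gained one in 2 and Eng in 1. With each library left out in turn 1 to 3 markers were called higher and 1 to 3 lower, and over all genes 901 to 2463 higher and 1086 to 3373 lower. Over all genes the highest counts were without SAG replicate 3 and the lowest without DMSO replicate 3. With scaling by library total 2 markers were higher and 1 lower, and over all genes 2473 higher and 1260 lower, or 66.2% higher of those called against 43.8% with the deposited scaling; over all genes the median went from -0.03 to 0.10 (log2). A threshold of 0.01 left 1 marker lower, and 794 genes higher and 1043 lower. A replicate block gave 1549 genes higher and 1976 lower and changed no marker's call. Same-numbered samples did not deviate together from their group means (r from -0.02 to 0.03). With 3 libraries in each group this cannot settle whether the numbers pair the samples. Groups with a library left out keep 2 samples. The lower SAG depth limits Ly6a, Pi16 and Dpp4, where 3 reads are a signal of 0.318 to 0.385 with SAG and 0.124 to 0.169 with DMSO.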

Other observations

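Vcam1 is a known NF-kB target, and a list of 24 other targets, Icam1 and some inside the cell among them, gave 15 tested genes. Of these 5 fell and 1 (Irf1) rose, with a median log2 fold change of -0.07 against -0.03 over all tested genes. Ptgs2 (inducible cyclooxygenase) fell 4.41-fold, from 88.5 ± 12.0 to 20.1 ± 1.45, Csf1 (a macrophage growth factor) fell 2.25-fold, from 365 ± 34.7 to 163 ± 15.2, and Tnfaip2 fell 1.71-fold. Cd40 was called lower, at 3.87 ± 0.197 and 1.75 ± 0.719, a call lost without any 1 library other than SAG replicate 3. The inhibitor gene Nfkbia was at 28.3 ± 0.676 and 28.7 ± 0.792 and Icam1 at 6.76 ± 0.532 and 6.599 ± 2.26, neither of them called. Leaving out DMSO replicate 1 or 3, or SAG replicate 1 or 2, left 3 genes lower. The higher count ran from 0 (without DMSO replicate 1, 2 or 3 or SAG replicate 2) to 3 (without SAG replicate 3), and the call of Irf1 was lost in 7 of 18 alternatives.

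Epithelial and mesothelial markers were scarce, with sums of 21.4 to 35.1 with DMSO and 13.3 to 16.7 with SAG. Of 6 tested, the keratin genes Krt8 and Krt18 and Lrrn4 were called lower, Krt8 from 8.58 ± 2.95 to 4.17 ± 0.881. None of the 3 calls held without DMSO replicate 1. Lrrn4, at 3.02 ± 0.973 with DMSO and 0.835 ± 0.626 with SAG, was tested only because of its DMSO level. Sertoli markers had no call among 6 tested, with sums of 72.9 to 77.6 and 63.7 to 79.4, and germ cell markers none among 2, with sums of 3.004 to 4.46 and 3.08 to 5.05. Erythroid markers had sums of at most 0.508. Fetal Leydig markers had 2 of 6 higher, Scarb1 and Hsd3b1, and 1 without any 1 DMSO replicate, when the call of Hsd3b1 was lost. Hsd3b1 was at 3.73, 2.01 and 30.8 in SAG replicates 1 to 3, and Star at 12.0, 11.2 and 50.7, so that SAG replicate 3 stood apart. The DMSO mean of Hsd3b1, 0.198, was under the filter, so it was tested only because of its SAG level. Interstitial progenitor markers had 10 of 16 higher, Tcf21 and Gli1 among them, and 1 lower. Gli1, at 0.625 ± 0.270 with DMSO, was tested only because of its SAG level.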
